A study of Mus musculus with 4 samples.

Results

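Transcript levels of 10 neurofilament and axonal cytoskeleton genes were examined at the spinal cord lesion of mice that carry human ApoE3 or ApoE4. The genes were taken by name, as NEFL, NEFM, NEFH, INA, STMN2, STMN3, TUBB3, MAP2, MAPT and UCHL1 in the capitals of the deposited table, and all 10 were listed at both time points among 10876 genes listed at both. Male targeted replacement mice, which make human ApoE3 or ApoE4 instead of mouse ApoE, received a contusion of the thoracic cord at 3 to 5 months of age. RNA of a short segment holding the lesion was sequenced at 7 and at 21 days post-injury (dpi), which gives 4 groups, ApoE3 7 dpi, ApoE4 7 dpi, ApoE3 21 dpi and ApoE4 21 dpi. Uninjured cord was not analysed here, and every group is male and injured.

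The deposited table holds 1 value per gene and group, pooled over the 3 mice of the group, so there is no spread between mice, no difference has a replicate check and no test was run. Values are FPKM, a measure of fragments scaled by transcript length and library depth. The number of reads behind a value is unknown. Ratios are log2((FPKM ApoE3 + 1)/(FPKM ApoE4 + 1)), so that a positive ratio is higher in ApoE3. The genotype of the value columns has a second reading. The rows name the comparison as ApoE3 versus ApoE4, which is the reading used and also that of the study, whereas the numbering of the columns would pair the values the other way, and then every genotype direction given here would be reversed.

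Neurofilaments are the intermediate filaments of axons. They are built from the light, medium and heavy chains encoded by Nefl, Nefm and Nefh together with alpha-internexin (Ina), and their number sets the calibre of large myelinated axons. Microtubules run beside them, made in neurons partly of the beta tubulin Tubb3, held by the associated proteins Map2 in dendrites and tau (Mapt) in axons, and destabilised by the stathmins Stmn2 and Stmn3. Uchl1 is an abundant neuronal ubiquitin C-terminal hydrolase. Neurofilament chains and Uchl1 are widely used as fluid markers of axonal and neuronal damage after spinal cord injury.

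The 3 neurofilament chains were listed higher at 21 dpi than at 7 dpi in both genotypes, with Nefl and Nefm at similar levels at 7 dpi and Nefh below them. Nefl was at 324 FPKM in ApoE3 and at 274 in ApoE4 at 7 dpi, and at 537 in ApoE3 and 866 in ApoE4 at 21 dpi. Nefm was at 339 and 286 FPKM at 7 dpi and at 609 and 1149 at 21 dpi, in ApoE3 and ApoE4 respectively. Nefh, the heavy chain with the long phosphorylated tail, was at 167 and 142 FPKM at 7 dpi and at 301 and 543 at 21 dpi. For each of these chains the lowest group was ApoE4 7 dpi and the highest was ApoE4 21 dpi. Ina was the least abundant of the 10 genes, at 50.0 and 44.3 FPKM at 7 dpi and at 94.8 and 122 at 21 dpi.

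Among the microtubule genes, Tubb3 was at 206 FPKM in ApoE3 and at 172 in ApoE4 at 7 dpi, and at 479 and 605 at 21 dpi. The stathmin Stmn2, which is known for its part in axon growth and repair, was at 167 and 147 FPKM at 7 dpi and at 474 and 652 at 21 dpi. Its relative Stmn3 was at 274 and 232 FPKM at 7 dpi and at 825 and 1071 at 21 dpi. These 3 genes had the same order of groups as the neurofilament chains in the deposited values. At 21 dpi 93.8% of all genes were lower in ApoE3, so most genes share the order of the 21 dpi groups. Mapt was at 769 and 733 FPKM at 7 dpi and at 1154 and 1623 at 21 dpi, and Uchl1 at 243 and 213 FPKM at 7 dpi and at 624 and 769 at 21 dpi, again in that order.

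Map2 was listed far above the rest and had another order. It was at 4119 FPKM in ApoE3 and at 3184 in ApoE4 at 7 dpi, and at 2879 in ApoE3 and 4989.9 in ApoE4 at 21 dpi, so its lowest group was ApoE3 21 dpi. Its rank from the top among the 10876 genes was 15, 23, 37 and 21 in ApoE3 7 dpi, ApoE4 7 dpi, ApoE3 21 dpi and ApoE4 21 dpi. FPKM depends on the transcript lengths of the annotation used, which is not given in the sources used here. GENCODE vM21 lists 24 transcripts for Map2, with a median length of 1945 bases for its protein-coding ones, and the part of isoform assignment in the high level was not tested.

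**Figure D1:**
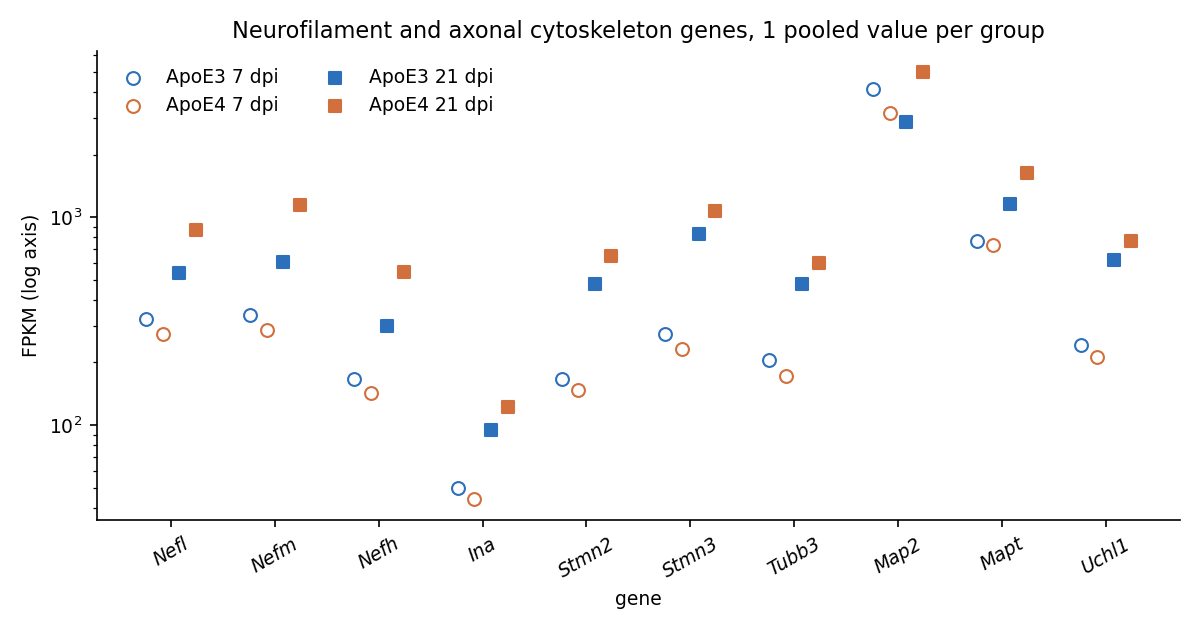
FPKM (log axis) of the 10 genes in the 4 groups, 1 pooled value per point, with open circles for 7 dpi, filled squares for 21 dpi, blue for ApoE3 and orange for ApoE4. In 9 of the 10 genes both 21 dpi values lie above both 7 dpi values, a pattern that was not counted over all genes. The median of all genes was itself higher at 21 dpi, by 0.09 log2 units in ApoE3 and 0.53 in ApoE4. In Map2 the ApoE3 21 dpi value of 2879 is the lowest of the 4.

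At 7 dpi all 10 genes were higher in ApoE3, by small margins. The median log2 ratio of the 10 genes was 0.24, against 0.0020 for all 14123 listed genes, of which 50.5% were higher in ApoE3. The ratios ran from 0.07 for Mapt to 0.37 for Map2, whose fold of 1.29 was just short of the fold of 1.3 used here as the limit for a count. None of the 10 genes (0 of 10) passed that fold in either direction, while 3.78% of all genes passed it with the higher level in ApoE3 and 4.76% with the higher level in ApoE4. The neurofilament chains had nearly equal ratios of 0.24 for Nefl, 0.25 for Nefm and 0.23 for Nefh. Their percentiles among the ratios of all genes were 89.3, 89.6 and 88.0. Tubb3 at 0.26 and Stmn3 at 0.24 lay beside them, and Uchl1 at 0.19, Stmn2 at 0.18 and Ina at 0.17 a little lower. In bulk tissue, fewer cells of a type and less RNA per cell cannot be told apart.

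At 21 dpi all 10 genes were lower in ApoE3 in the deposited values, but so were 93.8% of all 11470 listed genes. The median log2 ratio of genes averaging at least 1 FPKM was -0.42, against 0.0018 at 7 dpi, and the FPKM summed over all genes was 26.2% lower in ApoE3. Past the fold of 1.3 with the higher level in ApoE4 were 6 of the 10 genes (Nefl, Nefm, Nefh, Map2, Mapt and Stmn2), beside 58.9% of all genes, and none (0 of 10) had the higher level in ApoE3, beside 2.01% of all genes. The share of the 10 genes is thus near that of all genes. The uncentred median of the 10 genes was -0.47. Changes at 21 dpi are therefore given below relative to the median of all genes, called centred ratios, because other scalings of the groups moved the values by about as much.

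Relative to all genes, the 10 genes at 21 dpi fell on both sides of 0. The neurofilament chains and Map2 were the lowest in ApoE3, with centred log2 ratios of -0.49 for Nefm, -0.43 for Nefh, -0.37 for Map2 and -0.27 for Nefl. Past the fold of 1.3 after centring were 2 of the 10 genes, Nefm and Nefh, both higher in ApoE4, by 1.41-fold and 1.34-fold. Of all genes, 8.06% passed the centred fold at 21 dpi with the higher level in ApoE4 and 7.46% with the higher level in ApoE3. Map2, at 1.29-fold higher in ApoE4, was just short of it. At 7 dpi, where centring moved almost nothing, these shares were 4.82% and 3.76%, and again 0 of the 10 genes passed.

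The other 6 genes lay close to the median of all genes at 21 dpi. Mapt at -0.07 and Stmn2 at -0.03 were on the side of ApoE4, and Stmn3 at 0.05, Ina at 0.07, Tubb3 at 0.09 and Uchl1 at 0.12 on the side of ApoE3. The direction of the last 4 genes therefore depends on the scaling, since their uncentred ratios were -0.38, -0.36, -0.34 and -0.30. The direction of Nefl, Nefm, Nefh and Map2 was the same with and without centring, and with the groups set to equal summed FPKM or equal upper quartile. As a median, the 10 genes lay at -0.05 centred at 21 dpi and at 0.23 at 7 dpi.

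**Figure D2:**
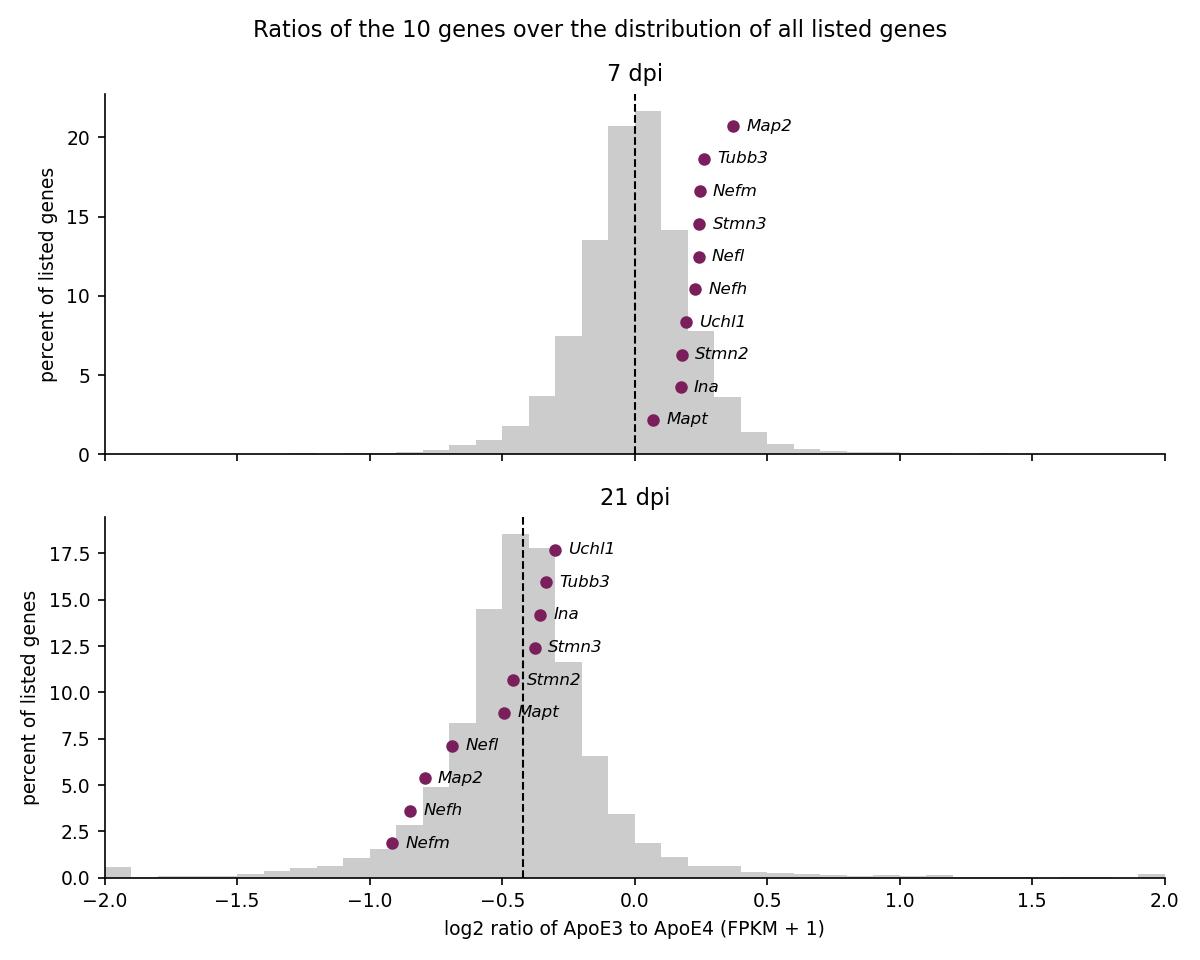
Log2 ratio of ApoE3 to ApoE4 for the 10 genes (purple points, with heights set only to keep the names apart) over the distribution of all listed genes (grey bars, percent of genes per bin of 0.1, with genes beyond the axis in the end bins) at 7 dpi above and 21 dpi below. The dashed line is the median of genes averaging at least 1 FPKM, at 0.0018 and -0.42; Nefm, Nefh, Map2 and Nefl lie furthest left of it at 21 dpi.

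Ratios between 2 genes of the same group do not depend on how that group was scaled. They are built from the same values as above, so they restate the split and do not add to it. Nefm was at 1.64 times Tubb3 in ApoE3 and 1.66 times in ApoE4 at 7 dpi, and at 1.27 times in ApoE3 and 1.90 times in ApoE4 at 21 dpi. The ratio of Nefl to Tubb3 was 1.57 and 1.59 at 7 dpi and 1.12 and 1.43 at 21 dpi, and that of Nefh to Tubb3 was 0.808 and 0.827 at 7 dpi and 0.628 and 0.897 at 21 dpi. In all 3 pairs the genotypes were close at 7 dpi and apart at 21 dpi, with ApoE3 21 dpi the lowest of the 4 groups. Ina did not share the distance between genotypes at 21 dpi, with a ratio to Tubb3 of 0.243 and 0.258 at 7 dpi and 0.198 and 0.201 at 21 dpi. Between both stathmins the ratio of Stmn2 to Stmn3 stayed within 0.575 to 0.636 over the 4 groups. The ratio of Mapt to Map2 was 0.187 and 0.230 at 7 dpi and 0.401 and 0.325 at 21 dpi, in ApoE3 and ApoE4.

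The make-up of the neurofilament transcripts was described as the share of each chain in the summed FPKM of Nefl, Nefm, Nefh and Ina. This sum was 879 in ApoE3 7 dpi, 746 in ApoE4 7 dpi, 1541 in ApoE3 21 dpi and 2679.9 in ApoE4 21 dpi. At 7 dpi the make-up hardly differed between genotypes, with Nefl at 36.8% and 36.7%, Nefm at 38.5% and 38.3%, Nefh at 19.0% and 19.1% and Ina at 5.69% and 5.94%. At 21 dpi ApoE4 had less Nefl (32.3% against 34.8%), less Ina (4.54% against 6.15%) and more Nefm (42.9% against 39.5%) than ApoE3, and Nefh was at 20.3% against 19.5%. Nefm to Nefl was 1.05 and 1.04 at 7 dpi, 1.13 in ApoE3 21 dpi and 1.33 in ApoE4 21 dpi, so ApoE4 21 dpi had the highest ratio. Nefl and Nefm are direct neighbours on chromosome 14 with no other protein-coding gene between them in RefSeq, while Nefh lies on chromosome 11 and Ina on chromosome 19.

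**Figure D3:**
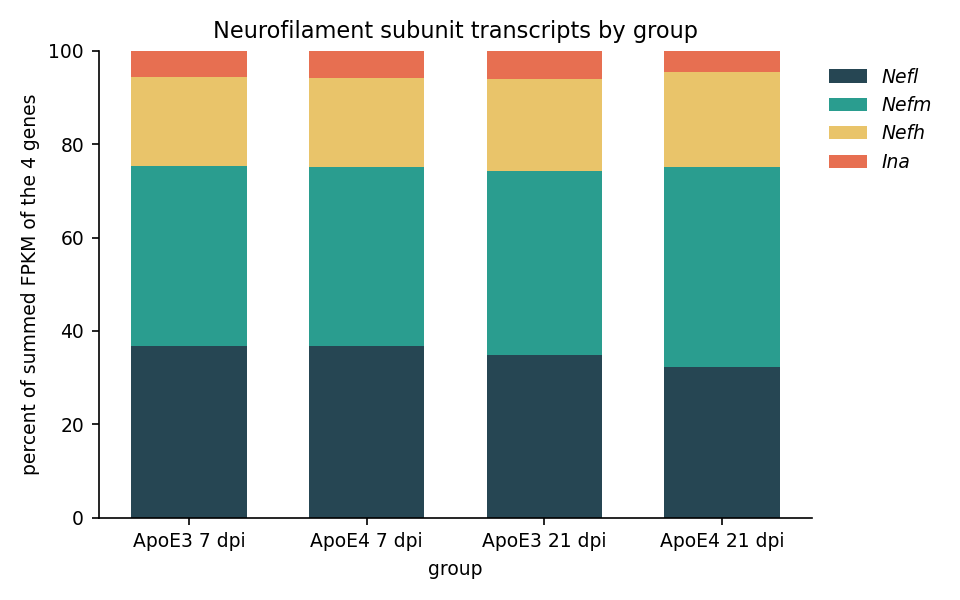
Share of Nefl, Nefm, Nefh and Ina in their summed FPKM (percent, stacked from 0 to 100) in the 4 groups, 1 pooled value each. Both 7 dpi groups have nearly the same shares, and ApoE4 21 dpi has the largest share of Nefm, 42.9%, and the smallest of Ina, 4.54%.

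Promoter sequence could be shown for some of these genes. RefSeq promoters of build GRCm38.p6 were found for 5 of the 10 genes, Ina, Map2, Stmn3, Tubb3 and Uchl1, and Nefl, Nefm, Nefh, Stmn2 and Mapt had no entry. The 120 bases before the annotated start are given for the 4 genes that lay together just above the median of all genes at 21 dpi, 5′ to 3′ on the strand of the gene. These are RefSeq starts. In GENCODE vM21 a transcript began at the same base for Stmn3 (1 of 1) and for none of those of Ina (0 of 1), Tubb3 (0 of 2) and Uchl1 (0 of 4), so the bases shown need not be next to the start used in the cord. Capitals mark matches on either strand to GGGCGG, the GC box, or CCAAT, the CCAAT box.
Ina (chr19:47014561-47014680, plus strand): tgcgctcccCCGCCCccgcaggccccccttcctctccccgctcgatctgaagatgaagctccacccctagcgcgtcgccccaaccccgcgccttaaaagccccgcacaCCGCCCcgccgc
Stmn3 (chr2:181314501-181314620, minus strand): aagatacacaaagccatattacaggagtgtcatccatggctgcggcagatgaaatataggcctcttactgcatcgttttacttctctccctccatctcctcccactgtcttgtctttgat
Tubb3 (chr8:123411433-123411552, plus strand): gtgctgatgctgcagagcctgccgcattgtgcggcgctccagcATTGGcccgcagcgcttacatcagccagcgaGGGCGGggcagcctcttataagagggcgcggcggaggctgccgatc
Uchl1 (chr5:66676001-66676120, plus strand): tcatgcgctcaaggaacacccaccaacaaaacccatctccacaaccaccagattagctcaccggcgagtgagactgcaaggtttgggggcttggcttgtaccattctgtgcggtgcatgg
In the 250 bases before the start, the GC box was found 2 times in Ina, 2 times in Tubb3 and 5 times in Map2 and not in Stmn3 or Uchl1, while 32.7% of all 32851 promoters held it. The CCAAT box was found 1 time, in Tubb3, beside 33.8% of all promoters, and TATAAA, the TATA box, in none of the 5 (0 matches), beside 12.4%. The matches did not overlap each other. Of the 4 genes shown, 2 thus held a GC box and 2 did not.

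Levels at 21 dpi were set against those at 7 dpi within each genotype. The authors compared the time points separately, so these values are a description of levels set across both comparisons, relative to the median of 10861 genes averaging at least 1 FPKM, which was 0.09 in ApoE3 and 0.53 in ApoE4 on the log2 scale. The 10 genes had a median of 0.79 in ApoE3 and 1.304 in ApoE4 above that. The highest were both stathmins, with 1.41 for Stmn2 and 1.497 for Stmn3 in ApoE3 and 1.61 and 1.68 in ApoE4. Their percentiles among all genes were 99.1 and 99.4 in ApoE3 and 99.4 and 99.5 in ApoE4. Uchl1 had 1.27 and 1.32, and Tubb3 1.12 and 1.28, in ApoE3 and ApoE4. Cell type markers, described below, also differed between the time points, in FPKM summed over genes listed at both. Neuron markers went from 9473 to 12752 in ApoE3 and from 7172 to 17966 in ApoE4. Macrophage markers went from 5607 to 278 and from 7437 to 539, and fibroblast markers from 664 to 119 and from 851 to 79.1. The part of cell make-up in the values over time was not tested.

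The neurofilament chains differed more between genotypes over time. Nefl had 0.64 in ApoE3 and 1.13 in ApoE4, Nefm 0.76 and 1.48, and Nefh 0.76 and 1.40, whereas Ina had 0.82 and 0.91. In ApoE3 the 3 chains thus stood below Ina, Tubb3, Uchl1 and the stathmins, and in ApoE4 they stood among them. Mapt had 0.50 and 0.62. Map2 had -0.60 in ApoE3, the only value below 0 among the 10 genes, and 0.12 in ApoE4, where its sign turned to -0.06 with the groups set to equal summed FPKM.

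**Figure D4:**
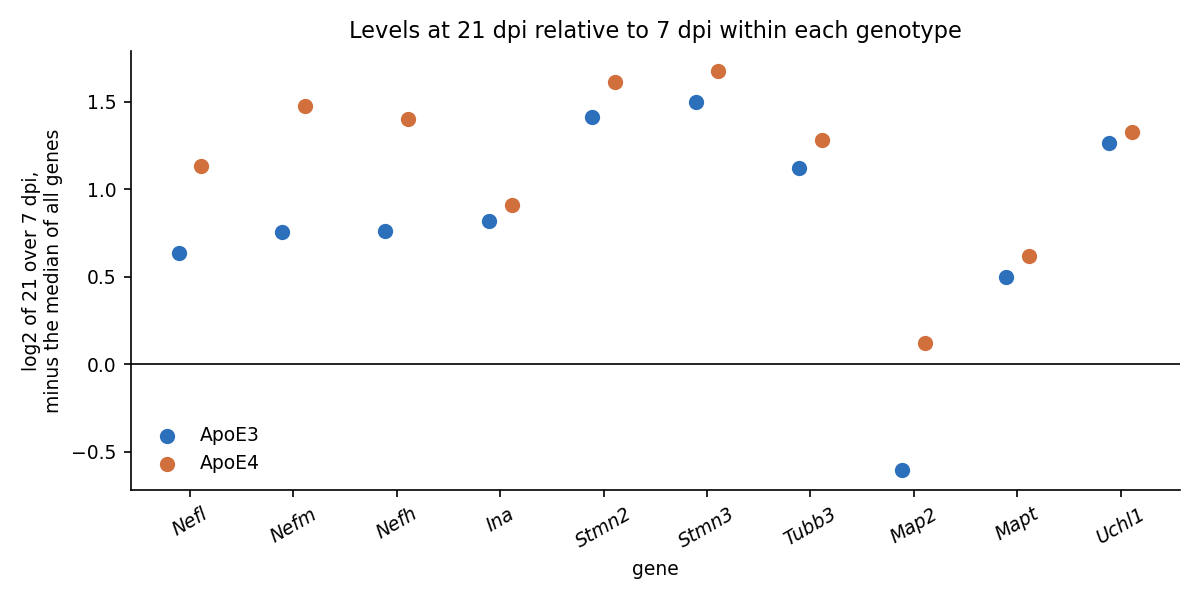
Log2 of the level at 21 dpi over that at 7 dpi, minus the median of all genes, for the 10 genes in ApoE3 (blue) and ApoE4 (orange), 1 value per point. The genotypes lie close for Ina, Tubb3, Mapt and Uchl1 and furthest apart for Nefm (0.76 and 1.48) and Map2 (-0.60 and 0.12).

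Genes with a pattern over the 4 groups like the mean of the 10 genes were looked for among 8501 other genes averaging at least 10 FPKM, by Euclidean distance between log2 profiles. The nearest were Stmn4 (0.04), Tagln3 (0.05), Ahi1 (0.05), Tfpt (0.05) and Ndufb6 (0.05). Stmn4, the remaining neuronal stathmin, was at 413 and 356 FPKM at 7 dpi and at 792 and 1181 at 21 dpi. The 10 genes themselves stood at 0.14 (Nefl) to 1.24 (Map2) from their own mean, so they do not share 1 profile.

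Other proteins of the neuronal cytoskeleton were described from lists. Of 24 other neuronal microtubule and membrane-skeleton genes, 20 were listed at 7 dpi, 16 of them above 0 after centring, with a median of 0.14, and 18 at 21 dpi, 10 of them above 0, with a median of 0.02. At 7 dpi the highest were Map1b (0.31), a microtubule-associated protein of growing axons, and Add2 (0.30), and the lowest Dpysl3 (-0.11) and Stmn1 (-0.11). At 21 dpi Map1b was the lowest (-0.53, 164 FPKM in ApoE3 and 319 in ApoE4), followed by Dclk1 (-0.32), and Dpysl5 (0.26) and the spectrin Sptan1 (0.20) were the highest. Map1b thus lay close to Nefm at both time points. Prph, the peripheral neuron intermediate filament, was at 106 and 94.1 FPKM at 7 dpi and was not listed at 21 dpi.

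Motors that carry neurofilaments and other cargo along axons behaved similarly at 7 dpi. Of 24 motor genes, 22 were listed at 7 dpi, 21 of them above 0 after centring, with a median of 0.12, and 19 at 21 dpi, 7 of them above 0, with a median of -0.07. The kinesin Kif1a (0.35) and the dynein chain Dync1i1 (0.32) were the highest at 7 dpi, and Dync1i2 (-0.09) and Dctn1 (0.00073) the lowest. At 21 dpi Dync1i1 (0.27) and Kif5a (0.11) were the highest and Kif2a (-0.29) and Kif5c (-0.28) the lowest. No motor gene (0 of 22 and 0 of 19) passed the fold of 1.3 after centring, beside 3.76% (higher in ApoE3) and 4.82% (higher in ApoE4) of all genes at 7 dpi and 7.46% and 8.06% at 21 dpi.

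Kinases and phosphatases that act on neurofilament tails and tau had a centred median of 0.12 at 7 dpi, with 19 of 22 listed genes above 0, and of 0.02 at 21 dpi, with 12 of 19 above 0. Gsk3b, a tau kinase, was among the highest at 7 dpi (0.25) with Mark1 (0.24), and was the lowest at 21 dpi (-0.27), beside the calcineurin subunit Ppp3ca (-0.24). Mark3 (-0.21) and Mark2 (-0.07) were the lowest at 7 dpi, and Mapk10 (0.34) and Mapk3 (0.24) the highest at 21 dpi. In this list too no gene (0 of 22 and 0 of 19) passed the centred fold, beside the same 3.76% and 4.82% of all genes at 7 dpi and 7.46% and 8.06% at 21 dpi.

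Genes of turnover and cross-linking of the axonal cytoskeleton were near the median of all genes, at 0.07 at 7 dpi (11 of 20 above 0) and 0.03 at 21 dpi (9 of 15 above 0). Hspb1, a small heat shock protein of injured neurons and glia, stood out as lower in ApoE3 at both time points. It was at 84.1 FPKM in ApoE3 and at 125 in ApoE4 at 7 dpi (-0.57 centred) and at 105 and 207 at 21 dpi (-0.56 centred). The highest were Ttll7 (0.37) and Trim2 (0.34) at 7 dpi. At 21 dpi Ttl (0.33) was among the highest, and Cast, the calpain inhibitor, among the lowest (-0.25).

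Within the families, Stmn1, which is also made by dividing cells, was the stathmin below 0 at 7 dpi (-0.11), and at 21 dpi the 4 stathmins lay between -0.15 (Stmn4) and 0.07 (Stmn1). Of the beta tubulins, which share much of their sequence so that reads may be split between them, 7 of 8 were listed at each time point. The neuronal Tubb3 (0.26) and the oligodendrocyte and neuron tubulin Tubb4a (0.17) were the highest at 7 dpi and Tubb6 (-0.41) and Tubb2b (-0.07) the lowest. At 21 dpi Tubb6 was again the lowest (-0.37, at 6.08 FPKM in ApoE3 and 11.3 in ApoE4) and Tubb5 the highest (0.14). The hydrolase Uchl5 had 0.54 at 7 dpi and 0.17 at 21 dpi, beside 0.19 and 0.12 for Uchl1, and Uchl3 had 0.05 and 0.01.

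Intermediate filaments of other cells differed from the neurofilaments at 7 dpi, with a centred median of -0.14 and 1 of 8 listed genes above 0, and had -0.06 at 21 dpi. Gfap, the filament of astrocytes, was at 12395 FPKM in ApoE3 and at 12386 in ApoE4 at 7 dpi, and at 8201 and 15313 at 21 dpi, a centred ratio of -0.48. This is close to the -0.49 of Nefm at the same time. Nes (-0.28) and Lmnb1 (-0.31) were the lowest at 7 dpi and Synm (0.07) the highest. The muscle filament Des was the lowest at 21 dpi (-0.81), at 0.943 FPKM in ApoE3 and 3.58 in ApoE4.

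The 10 genes were set beside neuron markers, a comparison of ratios that cannot show which cells made the transcripts. Of 16 synaptic and general neuron markers, 14 were listed at 7 dpi, and all 14 were above 0 after centring, with a median of 0.26, close to the 0.23 of the 10 genes. Their summed FPKM was 10371 in ApoE3 and 7919 in ApoE4 at 7 dpi and 12752 and 17966 at 21 dpi. Unless given over genes listed at both time points, each sum of a list covers the genes listed at its own time point. Such sums are not for comparing time points, and they are uncentred. At 21 dpi the FPKM summed over all genes was itself 26.2% lower in ApoE3. Relative to the median of these markers the 10 genes had a median of -0.02 at 7 dpi, a comparison added after the values were seen. Celf4 (0.48) and Snap25 (0.40) were the highest at 7 dpi and Elavl3 (0.12) and Sv2a (0.18) the lowest, and the most abundant marker was Celf4 at 7 dpi and Snap25 at 21 dpi. At 21 dpi the 12 listed markers lay between -0.14 (Gad2) and 0.16 (Elavl4), with a median of 0.03. Nefm, Nefh, Map2 and Nefl were thus below the whole range of these markers, while Mapt, Stmn2, Stmn3, Ina, Tubb3 and Uchl1 were inside it. Among the ratios of all genes at 21 dpi, Nefm stood at percentile 5.10, Nefh at 6.59, Map2 at 8.37 and Nefl at 13.6. The lower quartile of all genes was -0.57 before centring, beside -0.56 for Gad2, so many other genes also lay below that range.

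Motor neurons have large neurofilament-rich axons, and their markers were looked at for that reason. Of 7 markers 5 were listed at 7 dpi, all above 0, with a centred median of 0.31 and with Chat highest at 0.49. At 21 dpi 6 were listed with a median of -0.20, ranging from -0.91 for Calcb (23.5 FPKM in ApoE3 and 60.6 in ApoE4) and -0.49 for the vesicular acetylcholine transporter Slc18a3 (28.3 and 54.4) to 0.83 for Isl2 and 1.48 for Isl1 (3.15 and 1.002). Their summed FPKM was 83.7 and 69.0 over the 5 genes at 7 dpi and 75.6 and 140 over the 6 at 21 dpi. Over the 4 genes listed at both it was 38.6 and 31.7 at 7 dpi and 63.1 and 129 at 21 dpi. Slc5a7 was listed at 7 dpi alone and Mnx1 and Isl2 at 21 dpi alone. Slc18a3 had about the centred ratio of Nefm at 21 dpi, while Chat at -0.23 and Mnx1 at -0.17 lay nearer 0. The transcription factors Isl1 and Isl2, which sensory ganglion neurons also express, went the other way.

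Markers of peripheral tissue moved with the genotype at 21 dpi. Sensory ganglion neuron markers, from cells that themselves make neurofilaments, had a centred median of 2.46 at 21 dpi, with all 10 listed of 11 above 0. Scn10a was at 20.1 FPKM in ApoE3 and 0.153 in ApoE4, Avil at 39.1 and 1.195, and Trpv1 and Mrgprd were listed at 0 in ApoE4. The summed FPKM of this list was 821 in ApoE3 and 845 in ApoE4, most of it Calca (702 and 830), which motor neurons also express. At 7 dpi 3 of the 11 were listed, with a median of 0.17. Schwann cell markers had a centred median of 2.005 at 21 dpi, with 8 of 8 listed above 0, a summed FPKM of 3357 in ApoE3 and 1186 in ApoE4, and Pmp22 as the most abundant gene (1969.9 and 992). At 7 dpi 5 of the 9 were listed, with a median of 0.04 and sums of 823 and 817. ApoE3 21 dpi thus held transcripts of Scn10a and Avil that were near 0 in ApoE4 21 dpi, and the part of such tissue in the neuronal values was not tested.

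Skeletal muscle markers were on the other side at 21 dpi. All 5 listed of 8 were lower in ApoE3, with a centred median of -3.85 and a summed FPKM of 32.6 in ApoE3 and 684 in ApoE4, most of it Tnnt3 (22.5 and 515). Myh4 was listed at 0 in ApoE3. At 7 dpi 4 were listed, with a median of 0.52 and sums of 61.4 and 39.7. The part of these differences between the 21 dpi segments in the values of the 10 genes was not tested.

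**Figure D5:**
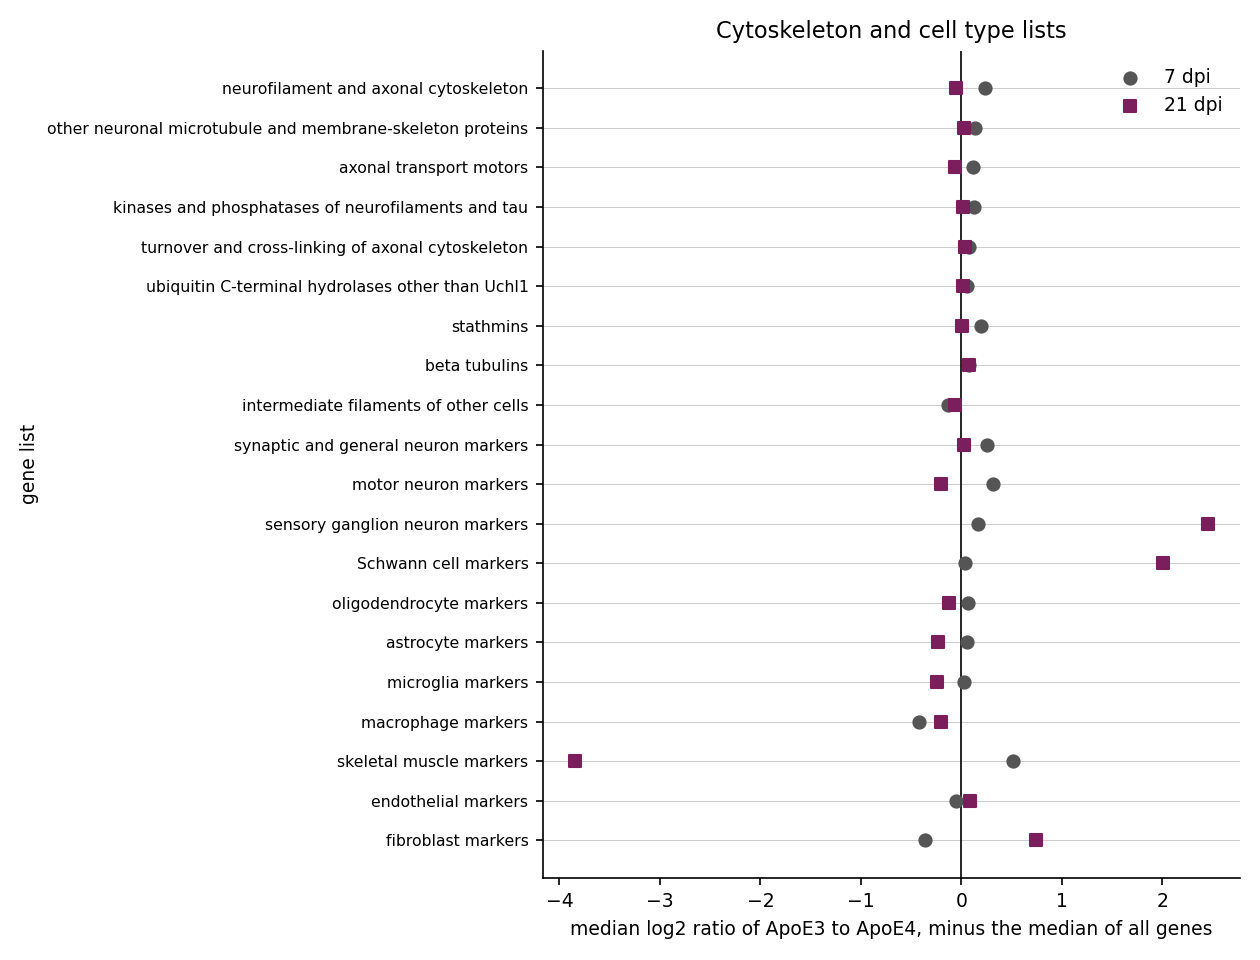
Median centred ratio on the log2 scale (horizontal axis, ApoE3 over ApoE4 relative to all genes) for the 10 genes and 19 other lists at 7 dpi (grey circles) and 21 dpi (purple squares). The neuronal cytoskeleton lists lie right of 0 at 7 dpi and near 0 at 21 dpi, while the sensory ganglion and Schwann cell lists lie at 2.46 and 2.005 and the muscle list at -3.85 at 21 dpi.

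Glial and immune markers are given beside the 10 genes as values of the same segments. Oligodendrocyte markers had a centred median of 0.07 at 7 dpi (7 of 10 listed) and -0.12 at 21 dpi (9 of 9 below 0), with sums of 127350 and 134476 FPKM at 7 dpi and 228368 and 321874 at 21 dpi. Mbp alone made up 7.23% and 7.65% of all summed FPKM at 7 dpi and 13.3% and 13.6% at 21 dpi, in ApoE3 and ApoE4. Astrocyte markers had 0.05 at 7 dpi and -0.23 at 21 dpi (7 of 8 below 0), with sums of 17067 and 16624.5 and then 13301 and 23099.5 FPKM, most of it Gfap, and Aqp4 at -0.40 was low at 21 dpi too. Microglia markers had 0.02 and -0.24 (5 of 5 below 0 at 21 dpi), with sums of 1315 and 1420 and then 444 and 797 FPKM, Aif1 being the most abundant at 21 dpi.

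Macrophage markers were lower in ApoE3 at 7 dpi, with a centred median of -0.43 and 6 of 7 listed genes below 0, and had -0.20 at 21 dpi. Their sums were 6934 and 9174 FPKM at 7 dpi, most of it Lyz2, and 733 and 1050.1 at 21 dpi, with Fn1 as the most abundant gene (454 and 511). Fibroblast markers had -0.36 at 7 dpi (6 of 6 below 0), with sums of 664 and 851 FPKM and Col1a1 as the most abundant gene (212 and 269.96), and 0.74 at 21 dpi (5 of 6 above 0), with sums of 119 and 79.1, where Pdgfra was at 42.0 and 58.8 and Dcn at 61.9 and 9.37. Endothelial markers had -0.06 and 0.08, with sums of 241 and 240 and then 208 and 265 FPKM, and Flt1 as the most abundant gene. At 7 dpi, therefore, the neuronal lists were above 0 while macrophage and fibroblast lists were below 0, and the part of cell make-up in this was not tested.

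Transcript length and base content were compared with the centred ratios across genes, as a description in which genes are not independent. GENCODE vM21 gave a length for 95.8% of 13947 genes at 7 dpi and 94.6% of 11396 at 21 dpi. Spearman's rho with length was 0.12 at 7 dpi and 0.0060 at 21 dpi, and with GC content -0.10 and 0.25. Nefl, Nefm and Nefh have median protein-coding transcripts of 3380, 3507 and 3994 bases and Ina of 3240, against 1322 for Tubb3 and 1177 for Uchl1. Genes of 2000 to under 4000 bases had a centred median of -0.0015 at 21 dpi and those under 2000 bases of 0.0045. The GC content of Nefl was 48.8%, of Nefm 55.6% and of Nefh 58.4%, and of Map2 47.1%. The part of length and base content in the ratios was not tested.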

How the data were processed

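The authors sequenced unstranded TruSeq libraries of the lesion segment, down-sampled them to equal reads, and used STAR 2.5.4b, SAMtools 0.1.7 and Cuffdiff 1.3.0 by the submitters' processing notes. One replicate aligned at a lower rate than the others, and its group is not given in the sources used here. The genome build and annotation are not given in the sources used here. Each value deposited by the authors is FPKM plus 1, for 1 gene in 1 group, and 1 was subtracted here. Columns with the authors' fold changes, p-values, q-values and calls, and their list of differentially expressed genes, gave no value used here. Reads of a gene and an antisense partner cannot be told apart. The genotype of the value columns was read from the named comparison and from which value the authors' fold change divides by which, not from the column numbers.

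Symbols on several rows (2 per time point) were left out. The scale was log2 with a pseudocount of 1, and centring subtracted the median of genes averaging at least 1 FPKM. Named were all 10 genes, the 2 highest and the 2 lowest of each list, of which those of some lists are given as medians alone, and the 5 nearest genes, and a few others were chosen after their values were seen. Some of the genes this rule takes are not reported here. The members and lists were chosen with earlier results of these data known. Alternatives were other pseudocounts, scalings, folds and filters. The procedures were tested on simulated data. Computations used matplotlib 3.10.9, scipy 1.17.1, pandas 2.3.3 and numpy 2.4.6 under Python 3.11.15.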

Additional observations from a re-analysis of the deposited data

Results flagged for a closer look

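For 6 of the 10 genes the centred log2 ratio of ApoE3 to ApoE4 was above 0 at 7 dpi and below 0 at 21 dpi, with 1 value per group at each time. Of all 5520 genes listed at both and above 0 at 7 dpi, 51.5% were below 0 at 21 dpi, so a count of 6 of 10 is near that of all genes. Of all 10876 genes, 26.1% went this way and 25.6% the opposite way (0 of the 10). The change from 7 to 21 dpi was -0.74 for Map2 (0.37 to -0.37), -0.74 for Nefm (0.24 to -0.49), -0.65 for Nefh (0.23 to -0.43) and -0.51 for Nefl (0.24 to -0.27). It was -0.21 for Stmn2 (0.18 to -0.03) and -0.14 for Mapt (0.07 to -0.07), both of which lay close to 0 at 21 dpi. None of these differences between the time points was tested, because 1 pooled value per group leaves no spread.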

How the results depend on the processing

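Pseudocounts of 0.1 and 0.01, and leaving out each gene in turn, moved neither median of the 10 genes by more than 0.1 log2 units, the limit used here for a move. At 21 dpi the median of -0.47 became -0.051 with the median of all genes subtracted, -0.037 at equal summed FPKM, -0.055 at equal upper quartile and -0.081 relative to the neuron markers, an alternative chosen after seeing the data. The 6 genes past the fold of 1.3 with the higher level in ApoE4 became 2 under each of the first 3 scalings, 3 relative to the neuron markers and 10 at a fold of 1.2, which 77.4% of all genes passed. At a fold of 1.5 they were 4, beside 23.0% of all genes. These moves follow from the construction of the alternatives, since a scaling shifts all genes alike. Under the 3 scalings 4 of the 10 genes (Ina, Stmn3, Tubb3 and Uchl1) had the other sign, in 12 of 30 values, and none of the 6 genes past the fold did.

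At 7 dpi 50 of 50 single-gene values under other pseudocounts and these 3 scalings stayed within 0.1, and relative to the neuron markers the median of 0.24 became -0.024, with the other sign in 8 of the 10 genes. At a fold of 1.2 the count higher in ApoE3 went from 0 to 1 (Map2), beside 9.19% of all genes. At equal summed FPKM the medians of 21 over 7 dpi became 0.61 in ApoE3 and 1.13 in ApoE4. No replicate could be left out and no paired analysis was possible because each group has 1 value. The reads behind each value are unknown, so no counting error is given. Reading the genotypes by column number would reverse every direction between genotypes.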

Other observations

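Map2 was not the only neuronal gene listed far above the neurofilament chains. The RNA-binding protein gene Celf4 was at 3988 FPKM in ApoE3 and at 2862 in ApoE4 at 7 dpi, the kinesin light chain Klc1 at 3507 and 3351, and the ankyrin Ank3, which anchors the axon initial segment, at 2374 and 2218, all above Nefl at 324 and 274. Klc1 was listed at 7 dpi and not at 21 dpi, as was Prph. Which genes are listed thus differs between the time points, with 14123 at 7 dpi, 11470 at 21 dpi and 10876 at both.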
